A study of Mus musculus with 15 samples.

Results

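Heat shock proteins and DNAJ co-chaperones were followed in mouse brain cortex through loss and return of microglia. The members are the gene symbols that begin with Hspa, Hspb, Hspd, Hspe, Hsph or Hsp90, or with Dnaja, Dnajb or Dnajc and a number, without pseudogene and Rik symbols. This gave 74 of the 53278 symbols in the count table, 29 with an HSP symbol and 45 with a DNAJ symbol. Of these, 69 passed the filter on low counts and were tested. The remaining 5 were Dnajb8, Dnajc22, Dnajc5b, Dnajc5g and Hspb9, which had between 0 and 11 reads in each library.

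RNA was sequenced in bulk from the cortex of 15 male C57BL/6J mice aged 10 to 20 weeks, 1 library per mouse and 5 mice per group. Control mice ate control food, and depletion mice ate food with PLX3397 for 9 days. Repopulation mice ate PLX3397 food for 9 days and control food for the next 9 days. PLX3397 blocks CSF1R, the receptor whose signal microglia need to survive, and it reaches other CSF1R-expressing cells and other kinases as well. No genotype other than the C57BL/6J strain was given for any group, and the labels name no control group for the later time point.

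Heat shock proteins are chaperones that hold, fold or unfold other proteins. HSP70 proteins bind short stretches of unfolded chains in a cycle driven by ATP; J-domain proteins, encoded by the Dnaj genes, deliver clients and start ATP hydrolysis, and exchange factors such as the HSP110 proteins reset the cycle. HSP90 acts on nearly folded clients, the HSP60 chaperonin folds proteins inside mitochondria, and small HSPs hold unfolded proteins without ATP. Some members are made at all times, as neurons do with Hspa8 and Dnajc5, and others are induced by heat shock factor after stress.

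Total counts ran from 24347802 to 48617851 in control, from 23413551 to 29482140 in depletion and from 26837517 to 29582274 in repopulation libraries. The summed level of 10 microglial marker genes was 278 to 309.8 CPM (counts scaled to an equal library total) in control, 14.1 to 18.2 in depletion and 309 to 342 in repopulation libraries. The markers of cortical neurons summed to 4395 to 4851 CPM in control, 4148 to 4846 in depletion and 4072 to 4473 in repopulation libraries. Of these 5 markers, 1 was called lower in depletion against control. In repopulation against control, 2 were called lower and 1 higher. The part of neurons in the chaperone levels was not tested. Markers of choroid plexus, a tissue outside the cortex, summed to 8.58 to 24.1 CPM in control libraries and above that range in 4 others, namely depletion mice 1, 2 and 3 (83.9 to 213 CPM) and repopulation mouse 4 (548 CPM). All 6 of these markers were detected. The depletion group keeps 2 libraries and the repopulation group 4 when those 4 are left out. Leaving them out ended all 18 calls of members in repopulation against depletion. It also ended those of Hspb1, Hspb6, Hspa4l and Hspa12a in depletion against control and those of Hspa1b, Hspa5, Dnajb4 and Dnajc12 in repopulation against control.

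The members took 0.829 to 0.932% of all counts in control, 0.857 to 0.914% in depletion and 0.821 to 0.841% in repopulation libraries. Per kilobase of exon, the highest control levels belonged to Hsp90ab1 (477 CPM per kb), Hspa8 (253), Hsp90aa1 (175), Hsp90b1 (84.8) and Hspa5 (66.8). The first is the constitutive cytosolic HSP90, the second the constitutive cytosolic HSP70, the third the more inducible cytosolic HSP90, and the last pair are the HSP90 and HSP70 of the endoplasmic reticulum (ER). Dnajc6, which encodes the neuronal auxilin that strips clathrin from vesicles with Hspa8, followed at 62.0 CPM per kb. Dnaja2 and Dnajc5 were at 61.5 and 61.3 CPM per kb. These 3 neighbours do not differ by more than the spread between mice. The stress-inducible Hspa1b and Hspa1a stood at 2.76 and 1.61 CPM per kb, at places 55 and 60 of the 74 members.

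**Figure D1:**
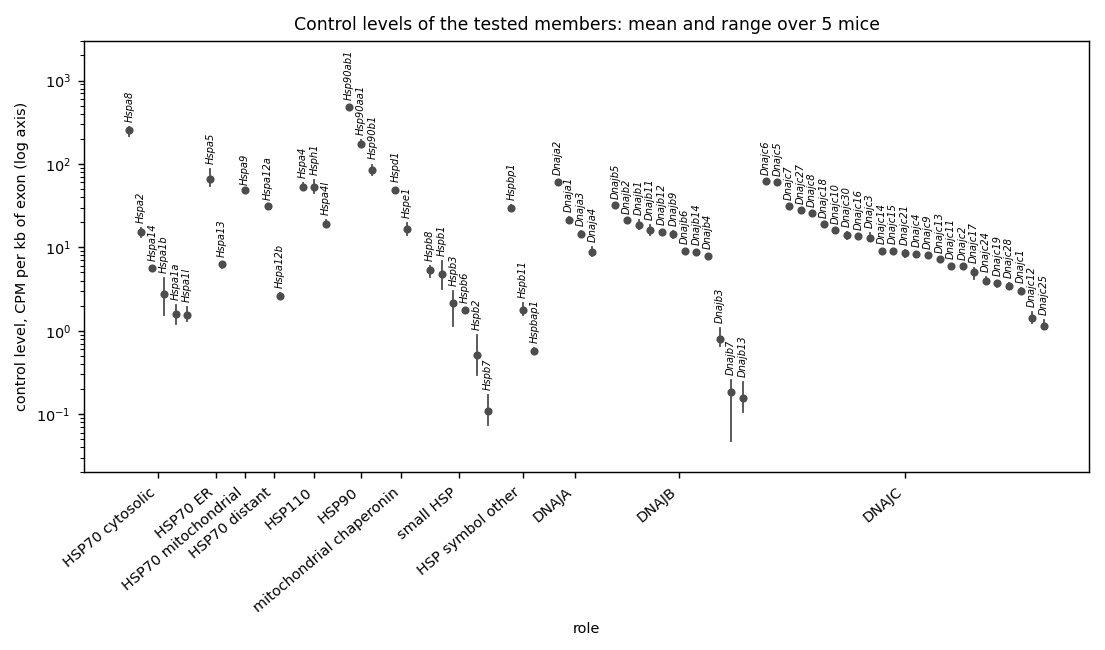
Control level of each tested member in CPM per kilobase of exon (vertical log axis), grouped by role, as the mean of 5 mice with a line from the lowest to the highest mouse. Hsp90ab1 (477 CPM per kb) and Hspa8 (253) stand above the other members, and Hspb7 (0.108) and Dnajb13 (0.158) are lowest.

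Promoter sequences are shown for 5 members that were called and for Hsp90b1, which was not called but holds the same ER element as Hspa5, since heat shock factor binds repeats of GAA and its complement TTC, and ER stress acts through a longer element. They are from RefSeq on GRCm38.p6 and run from 250 bases before the transcription start to 50 after it, 5′ to 3′ on the gene's strand. In the first 4, capitals mark GAANNTTC, the core of a heat shock element. In Hspa5 and Hsp90b1, capitals mark the ER stress element on either strand, which is CCAAT, then any 9 bases, then CCACG.
Hspe1 (chr1:55087898-55088197, plus strand): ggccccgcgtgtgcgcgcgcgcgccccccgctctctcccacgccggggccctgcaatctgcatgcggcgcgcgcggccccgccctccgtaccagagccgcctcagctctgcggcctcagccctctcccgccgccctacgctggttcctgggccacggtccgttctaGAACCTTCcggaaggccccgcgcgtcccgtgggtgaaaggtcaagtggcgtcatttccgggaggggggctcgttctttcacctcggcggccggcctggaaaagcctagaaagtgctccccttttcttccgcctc
Hspa1b (chr17:34959189-34959488, minus strand): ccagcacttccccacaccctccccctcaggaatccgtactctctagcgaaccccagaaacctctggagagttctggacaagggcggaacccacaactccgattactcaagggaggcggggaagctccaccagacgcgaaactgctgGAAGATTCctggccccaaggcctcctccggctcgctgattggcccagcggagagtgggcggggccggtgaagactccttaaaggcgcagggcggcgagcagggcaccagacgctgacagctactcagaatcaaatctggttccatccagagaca
Hspa1a (chr17:34972107-34972406, minus strand): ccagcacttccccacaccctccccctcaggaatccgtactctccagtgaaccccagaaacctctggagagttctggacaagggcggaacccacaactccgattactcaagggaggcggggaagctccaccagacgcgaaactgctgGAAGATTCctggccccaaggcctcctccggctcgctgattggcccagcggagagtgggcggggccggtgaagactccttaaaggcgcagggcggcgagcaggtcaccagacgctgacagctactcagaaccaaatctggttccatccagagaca
Hspb1 (chr5:135887669-135887968, plus strand): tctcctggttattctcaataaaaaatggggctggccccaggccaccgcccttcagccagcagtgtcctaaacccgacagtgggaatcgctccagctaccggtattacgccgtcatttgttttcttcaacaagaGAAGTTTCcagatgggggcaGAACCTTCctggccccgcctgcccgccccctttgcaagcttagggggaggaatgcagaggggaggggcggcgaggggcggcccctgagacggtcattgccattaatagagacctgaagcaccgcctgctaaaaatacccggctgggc
Hspa5 (chr2:34771840-34772139, plus strand): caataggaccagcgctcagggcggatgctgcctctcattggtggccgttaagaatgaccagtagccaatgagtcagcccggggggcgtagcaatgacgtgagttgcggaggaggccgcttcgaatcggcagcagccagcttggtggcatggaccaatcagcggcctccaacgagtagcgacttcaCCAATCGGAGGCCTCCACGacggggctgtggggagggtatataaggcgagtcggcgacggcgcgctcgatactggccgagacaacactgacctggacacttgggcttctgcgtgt
Hsp90b1 (chr10:86705395-86705694, minus strand): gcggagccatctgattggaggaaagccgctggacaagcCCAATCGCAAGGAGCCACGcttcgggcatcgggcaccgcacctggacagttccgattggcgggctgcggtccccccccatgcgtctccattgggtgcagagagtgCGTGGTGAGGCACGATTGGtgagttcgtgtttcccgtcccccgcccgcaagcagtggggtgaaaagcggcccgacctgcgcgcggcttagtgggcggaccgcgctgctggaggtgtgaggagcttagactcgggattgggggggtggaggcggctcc
The Hspa1a and Hspa1b windows hold the same base at 296 of 300 positions. Hspb1 holds GAANNTTC at 2 places and Hsp90b1 holds the ER stress element at 2 places.

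Of the 74 members, 60 had a RefSeq promoter entry, with 77 promoters in all. Members without one included Hspa8, Hspa9, Hsp90aa1, Hsp90ab1 and Dnajc5. GAANNTTC, searched on both strands, was present in 20.8% of member promoters and in 7.86% of all 32851 promoters. The 3-unit form, GAA, TTC and GAA with any 2 bases between units, contains the shorter motif. It was present in 7.79% of member promoters and in 0.603% of all, and its member genes were Dnajb6, Hspd1, Hspe1 and Hsph1. The ER stress element was in 3.9% of member promoters, those of Dnajc3, Hsp90b1 and Hspa5, and in 0.119% of all promoters. These are descriptions of letters and not of bound factors.

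In depletion against control mice, 7 of the 69 tested members were higher and 3 lower at an adjusted p under 0.05 (edgeR quasi-likelihood test, Benjamini-Hochberg over all genes). The called share was 14.5%, against 16.5% of all 18369 genes tested, so the members were called about as often as genes in general. Higher members were 10.1% and lower members 4.35%, against 8.19% and 8.35% of all genes, and among genes of at least 10 CPM the called shares were 16.3% and 22.7%. In 6 members every depletion mouse was above every control mouse and in 1 below, against 4.99% and 5.38% of all genes (10.4% in either direction). The median log2 fold change of the members was 0.01, against -0.00 over all genes. With gene length and GC content taken out of each library, 9 members were higher and 1 lower, beside 9.44% and 4.49% of all genes. Only 4 of the 9 higher members, and the 1 lower, were also called without this correction. Members called higher only with it included Hsp90ab1 and Dnajb12.

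In repopulation against depletion mice, 2 members were higher and 16 lower. The called share was 26.1%, against 16.6% of all genes, the share called lower was 23.2% against 8.98%, and the share called higher was 2.9% against 7.61%. In 12 members every repopulation mouse was below every depletion mouse and in 0 above, against 6.24% and 5.57% of all genes (11.8% in either direction). The median log2 fold change of the members was -0.08, against 0.00 over all genes. Among genes of at least 10 CPM, the called share was 32.7% of members and 22.9% of all genes. With the length and GC correction, no member was higher and 23 were lower, beside 19.1% of all genes called lower. Of these 23 members, 16 were also called lower without it. None of the 69 was called without the 4 choroid plexus libraries, which leaves 2 depletion mice and moved the lower calls over all genes from 1649 to 260. Leaving out depletion mouse 1, depletion mouse 4 or repopulation mouse 4 gave 10 lower calls.

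In repopulation against control mice, 7 members were higher and 23 lower. The called share was 43.5%, against 29.1% of all genes, 33.3% of members were lower against 15.2% of all genes, and 10.1% were higher against 13.9%. The median log2 fold change was -0.07, against 0.01 over all genes. Among genes of at least 10 CPM the called share was 51% of members and 42.8% of all genes. The length and GC correction gave 3 higher and 25 lower members, of which 2 and 22 were also called without it, beside 7.62% and 15.8% of all genes called higher and lower. In 19 members every repopulation mouse was below every control mouse, and in 6 every one was above. Over all genes, 11.8% were separated downward and 10.5% upward (22.3% in either direction).

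The 3 comparisons share libraries, so their calls are not independent. Over the 3, 35 members were called at least once, 34 never, and 2 in all: Dnajc13 and Dnajb5. The largest pattern with a call held 12 members, not called in depletion against control and lower in repopulation than in both other groups. This was 17.4% of the members, and 6.05% of all genes had the same pattern. They were Dnaja1, Dnaja2, Dnaja3, Dnaja4, Dnajb2, Dnajb4, Dnajb6, Dnajb9, Dnajc12, Dnajc9, Hspa8 and Hspbp1. Leaving out any of 10 libraries ended the repopulation against depletion call of Dnaja3, and any of 5 or 6 ended that of Dnajb4, Dnajb6 or Dnajc12. In bulk RNA, fewer cells of a type that makes a transcript and less of that transcript per cell cannot be told apart.

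**Figure D2:**
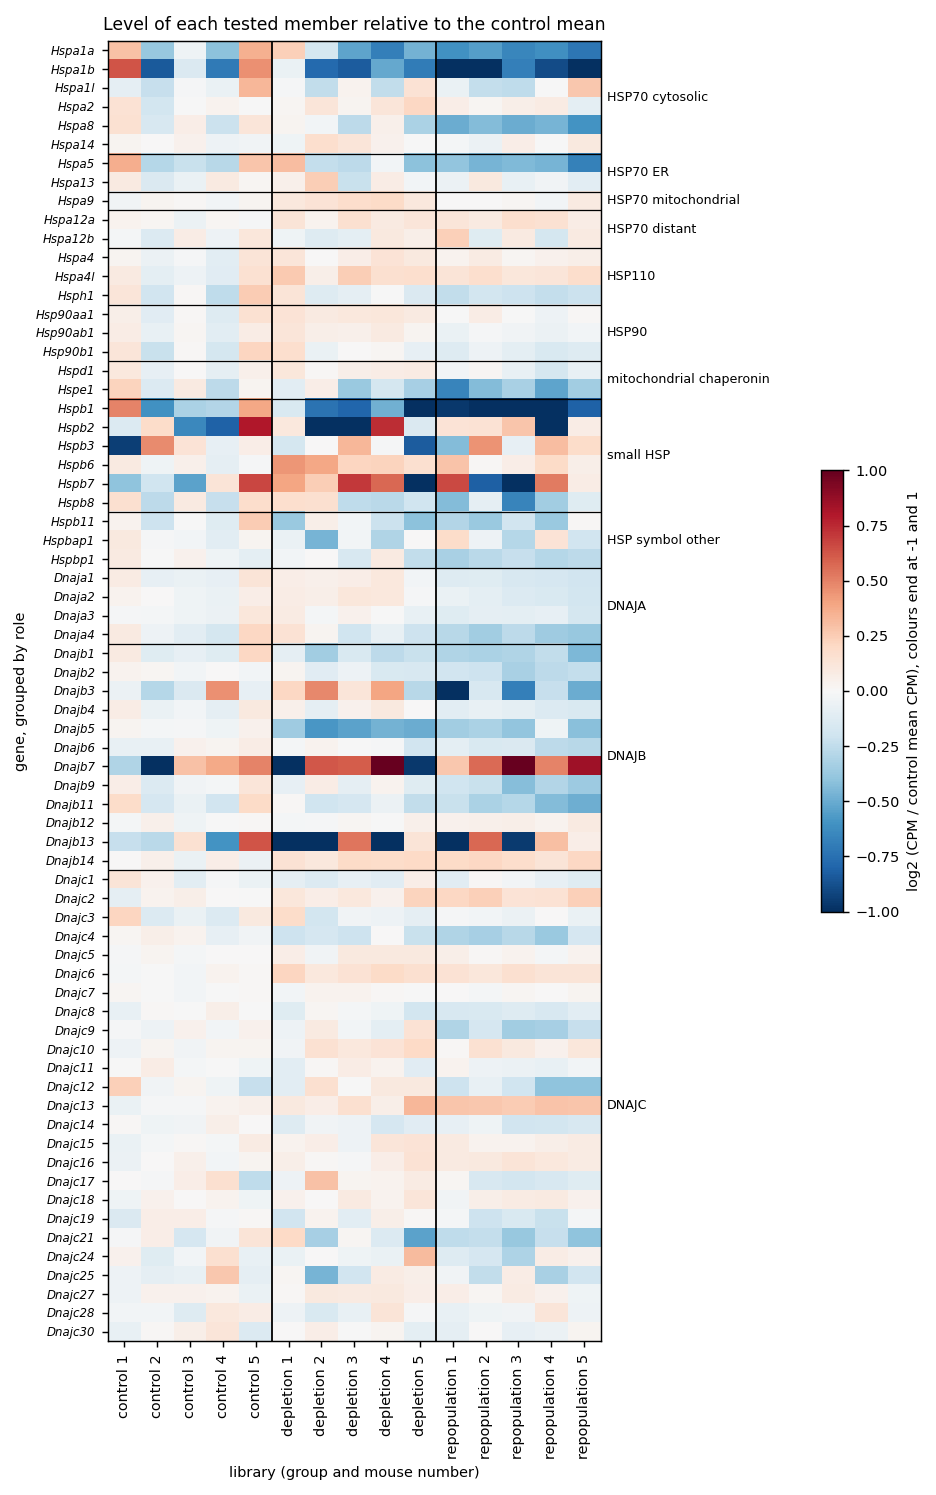
Level of each tested member in each of the 15 libraries as log2 of CPM over the control mean, genes in rows by role and mice in columns by group. The repopulation columns are bluer than all other columns for Hspa8. For Hspa5, Hspe1 and Hspb1 they are bluer than the control columns but overlap with the depletion columns. Controls 1 and 5 are redder than the other controls for Hspa1a, Hspa1b, Hspa5 and Hspb1.

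Among the cytosolic HSP70 genes, Hspa8 (ENSMUSG00000015656.17, GRCm38 chr9:40800984-40810087, plus strand) had by far the highest counts. Its level was 1205, 974, 1135, 934 and 1183 CPM in control mice 1 to 5. In depletion mice it was 1106, 1064, 908, 1123 and 872 CPM, and in repopulation mice 769.5, 805, 770.5, 786 and 719 CPM. Every repopulation mouse was below every mouse of the other groups, while control and depletion mice overlapped. Hspa8 fell by 0.50 on the log2 scale (standard error, SE, 0.09, edgeR adjusted p = 0.000751) against control and by 0.40 (SE 0.09, adjusted p = 0.00666) against depletion. The second value had an adjusted p of 0.184 without the choroid plexus libraries. Pseudogene and other transcripts hold 38.6% of the 50-base words of Hspa8, so its count depends on how shared reads were treated, which was not given. The same limit applies to Hsp90aa1, with 47.5% of its words shared, and to Hspd1, with 39.7%.

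Hspa1a and Hspa1b, the adjacent stress-inducible HSP70 genes on chromosome 17, are near-identical: 58.8% of the 50-base words of Hspa1a are also in Hspa1b, so how their reads were split is uncertain. Hspa1b was at 11.97, 4.32, 6.99, 4.73 and 10.6 CPM in control, at 7.40, 4.51, 4.35, 5.42 and 4.77 in depletion and at 3.81, 3.80, 4.82, 4.15 and 2.78 in repopulation mice. Control mice 1 and 5 and depletion mouse 1 were the highest of their groups, and the groups overlapped. Hspa1b fell by 1.02 (SE 0.29, edgeR adjusted p = 0.018) in repopulation against control, with an adjusted p of 0.0573 without the choroid plexus libraries. Hspa1a fell by 0.64 (SE 0.17, edgeR adjusted p = 0.00562), and its repopulation mice, at 2.89 to 3.25 CPM, lay below all controls, at 3.59 to 6.10 CPM. Neither passed in depletion against control, where the log2 changes were -0.56 (adjusted p = 0.206) and -0.29 (adjusted p = 0.242) for Hspa1b and Hspa1a. Of the other cytosolic HSP70 genes, Hspa1l and Hspa2, which are best known from testis, and Hspa14, a ribosome-associated HSP70, passed no test. Their log2 changes against control ran from -0.05 to 0.10.

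Hspa5 encodes BiP, the HSP70 of the ER (ENSMUSG00000026864.13, GRCm38 chr2:34771970-34777547, plus strand). Its level was 364, 232, 242, 233 and 342 CPM in control, 351, 240.0, 236, 277 and 213 CPM in depletion and 215, 205, 208, 205 and 177 CPM in repopulation mice. All repopulation mice were below all controls, and control mice 1 and 5 and depletion mouse 1 were well above the rest. Hspa5 fell by 0.49 (SE 0.16, edgeR adjusted p = 0.0408) against control. Leaving out any of 8 libraries ended that call, with an adjusted p of up to 0.104, and leaving out the choroid plexus libraries gave 0.073. The DNAJ partners of BiP included Dnajb9 and Dnajb11, the ER-luminal J-domain proteins ERdj4 and ERdj3. Dnajb9 fell by 0.30 (SE 0.06, adjusted p = 0.000218) and Dnajb11 by 0.35 (SE 0.08, adjusted p = 0.00269) in repopulation against control. The further ER members Dnajc3 and Dnajc10 did not pass, at -0.03 and 0.08. Hsp90b1, the HSP90 of the ER, was at 342 CPM ± 44.3 in control and 316 CPM ± 8.15 in repopulation (SD, n = 5) and did not pass. Hspa13, an ER-associated HSP70, did not pass either.

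**Figure D3:**
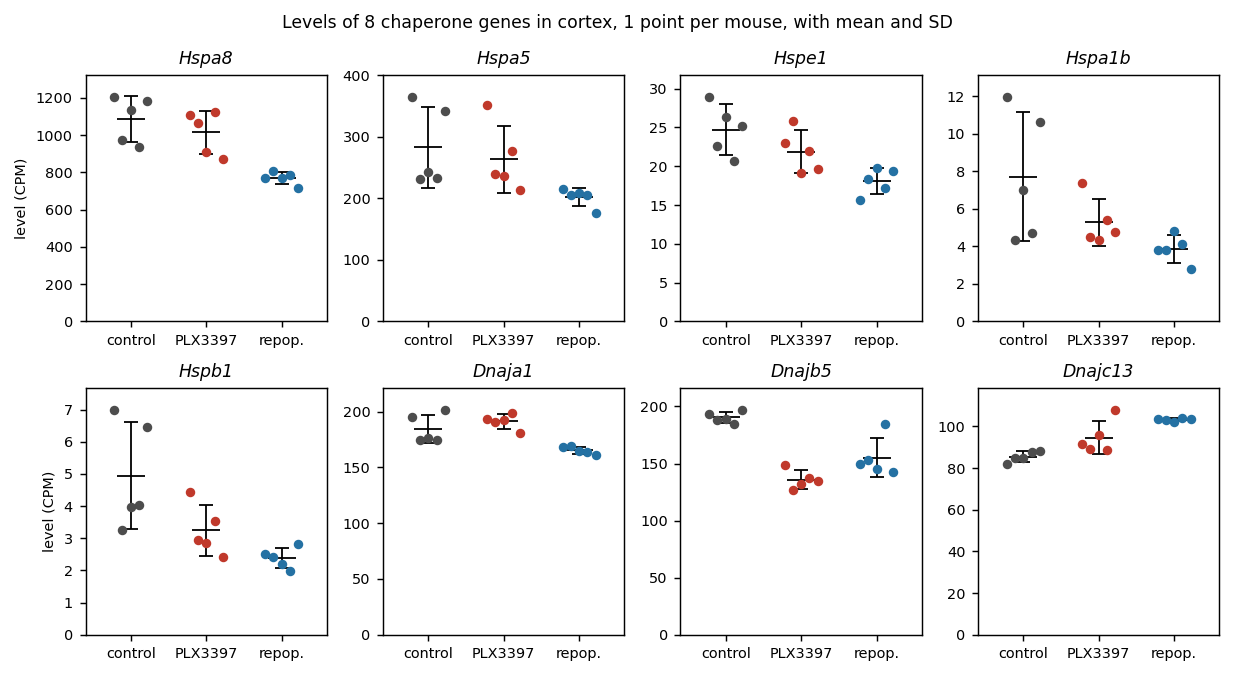
Level (CPM) of 8 chaperone genes, 1 point per mouse, with mean and SD for each group of 5, on axes that start at 0. Hspa8, Hspa5, Hspe1, Hspb1 and Dnaja1 lie lower in all repopulation than in all control mice, Dnajb5 falls in depletion, and Dnajc13 is higher in both treated groups.

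Hspa9, the mitochondrial HSP70 mortalin, had its own pattern. In control mice it stood at 202, 210.5, 208, 203 and 211 CPM, in depletion mice at 223, 227, 234, 236 and 223, and in repopulation mice at 207, 208, 209.9, 203 and 220.0. The depletion mice were above every other mouse. Hspa9 was higher by 0.14 (SE 0.03, edgeR adjusted p = 0.00185) in depletion against control and fell by 0.13 (SE 0.03, adjusted p = 0.00569) from depletion to repopulation. It had an adjusted p of 0.143 in the latter without the choroid plexus libraries.

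The 2 mitochondrial chaperonin genes, Hspd1 (HSP60) and Hspe1 (its lid, HSP10), lie head to head on chromosome 1, with exons that overlap by 112 bases on opposite strands. Hspe1 (ENSMUSG00000073676.4, chr1:55088132-55091307) was at 28.9, 22.6, 26.4, 20.6 and 25.1 CPM in control, 23.0, 25.8, 19.1, 21.9 and 19.6 in depletion and 15.6, 18.3, 19.7, 17.1 and 19.4 in repopulation mice. Repopulation and control mice did not overlap. Hspe1 fell by 0.46 (SE 0.09, edgeR adjusted p = 0.00119) against control, and Hspd1 was at -0.06 (adjusted p = 0.255) in the same comparison. Hspd1 fell by 0.13 (adjusted p = 0.025) in repopulation against depletion, where Hspe1 was at -0.28 (adjusted p = 0.054). The difference between these neighbours was not tested.

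Of the small HSPs, Hspb1, the mouse HSP25, moved most (GRCm38 chr5:135887919-135889563, plus strand). It was at 6.98, 3.25, 3.97, 4.04 and 6.45 CPM in control, 4.44, 2.96, 2.85, 3.55 and 2.41 in depletion and 2.53, 2.41, 2.19, 1.99 and 2.82 in repopulation mice. All repopulation mice were below all controls. Hspb1 fell by 1.06 (SE 0.21, edgeR adjusted p = 0.000727) against control, and by 0.61 (SE 0.20, adjusted p = 0.0424) in depletion against control. The second call ended when any of 9 libraries was left out (adjusted p of up to 0.124), without the choroid plexus libraries (0.13) and with the length and GC correction (0.139). A pseudogene holds 48.8% of its 50-base words. Hspb6, another small HSP, was higher by 0.28 in depletion (adjusted p = 0.0442), a call that 12 of the 15 left-out libraries ended and that had an adjusted p of 0.449 without the choroid plexus libraries. Hspb2, Hspb3, Hspb7 and Hspb8 passed no test; Hspb2 shares 30.2% of its exon bases with Cryab on the other strand, and the strand setting of the counting was not given.

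Of the cytosolic HSP90 genes, Hsp90ab1 passed in 1 comparison and Hsp90aa1 in none in the main test, but other settings gave further calls. Hsp90ab1 had levels of 1329 to 1504 CPM in control, 1458 to 1557 in depletion and 1363 to 1419 in repopulation mice, and fell by 0.11 (SE 0.03, edgeR adjusted p = 0.03) from depletion to repopulation, with 5 left-out libraries ending the call. The log2 change of Hsp90aa1 was 0.01 in repopulation against control. With the length and GC correction, Hsp90ab1 was higher by 0.16 (edgeR adjusted p = 0.00171) in depletion against control. Under the same correction, Hsp90aa1 fell by 0.14 (edgeR adjusted p = 0.0132) from depletion to repopulation. Hsp90aa1 also passed in depletion against control without control mouse 5 (edgeR adjusted p = 0.00944). Of the HSP110 exchange factors, Hspa4l was higher by 0.18 (SE 0.05, adjusted p = 0.00865) in depletion and by 0.14 (adjusted p = 0.0241) in repopulation against control. The length and GC correction ended both calls, with changes of 0.08 and -0.02, and the first had an adjusted p of 0.097 without the choroid plexus libraries. Hsph1 was at 423, 339.9, 391, 326 and 463 CPM in control and between 327 and 341 CPM in repopulation mice, and did not pass (log2 -0.22, adjusted p = 0.0713). Hsph1 did pass without control mouse 2 or control mouse 4, with the length and GC correction (-0.31) and with DESeq2.

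All 4 DNAJA genes fell from depletion to repopulation, and all 4 fell against control. Over all genes, 8.98% were lower in the first comparison and 15.2% in the second. None of the 4 calls against depletion remained without the choroid plexus libraries, which leaves 2 depletion mice. Dnaja1 (GRCm38 chr4:40722150-40737149), a cytosolic J-domain partner of HSP70, was at 195, 174, 176, 175 and 201 CPM in control, 193, 191, 193, 199 and 181 in depletion and 168, 169, 165, 164 and 161 in repopulation mice. Every repopulation mouse was below all the others. The change of Dnaja1 was -0.21 (SE 0.04, edgeR adjusted p = 0.000485) against depletion and -0.16 (SE 0.04, adjusted p = 0.00373) against control. Dnaja2, its cytosolic relative, fell by 0.19 (adjusted p = 0.000229) against depletion, and Dnaja4 fell by 0.27 (adjusted p = 0.0103). Dnaja4 shares 44.1% of its exon bases with Wdr61 on the other strand. Dnaja3, the mitochondrial member, fell by 0.12 (adjusted p = 0.047), a call that 10 left-out libraries ended. Its call against control (adjusted p = 0.0427) ended without any of 7 libraries, with an adjusted p of up to 0.129, and also with the length and GC correction.

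Among the 12 tested DNAJB genes, 7 were lower and 1 higher in repopulation than in control mice, or 58.3% and 8.33%, beside 15.2% and 13.9% of all genes. Dnajb2, a neuron-enriched co-chaperone that passes clients to the proteasome, was at 92.6, 91.4, 88.4, 90.6 and 88.8 CPM in control, 91.8, 83.6, 87.3, 81.4 and 81.0 in depletion and 79.2, 78.1, 72.3, 75.4 and 76.6 in repopulation mice. Repopulation mice lay below all the others. Dnajb2 fell by 0.24 (SE 0.04, edgeR adjusted p = 3.78e-05) against control. Dnajb1, the stress-inducible HSP40, fell by 0.21 (adjusted p = 0.0185) in depletion and by 0.32 (SE 0.06, adjusted p = 0.000328) in repopulation against control. The first of these calls ended without control mouse 1 or control mouse 5 (adjusted p of up to 0.0565) and with the length and GC correction (0.259). Dnajb6, which holds back aggregation of glutamine-rich proteins, fell by 0.18 (adjusted p = 0.00505) against control. Dnajb4, a cytosolic relative of Dnajb1, fell by 0.11 (adjusted p = 0.0454), and 6 left-out libraries ended that call, as did leaving out the choroid plexus libraries (adjusted p = 0.0648). Dnajb3, known from testis, was called lower in repopulation against depletion (-0.70, adjusted p = 0.0399) at a mean of 0.594 CPM, and 7 left-out libraries ended that call.

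Dnajb5 (ENSMUSG00000036052.14, GRCm38 chr4:42949814-42959425, plus strand), which encodes a J-domain protein of the Dnajb1 kind, showed the largest depletion change of a member above 10 CPM. Its level was 194, 188, 189, 185 and 197 CPM in control mice and 149, 127, 132, 137 and 135 CPM in depletion mice. In repopulation mice it was 150.0, 153, 145, 185 and 143 CPM. Control and depletion mice did not overlap, while repopulation mouse 4 reached the control range. Dnajb5 fell by 0.49 (SE 0.06, edgeR adjusted p = 5.16e-06) in depletion against control and by 0.30 (SE 0.06, adjusted p = 0.000559) in repopulation against control. The rise from depletion to repopulation was 0.19 (adjusted p = 0.0273). That rise was not called without the choroid plexus libraries, where it was 0.12 (adjusted p = 0.137), nor with the length and GC correction (0.08). The microglial marker sum was 14.1 to 18.2 CPM in depletion and 309 to 342 CPM in repopulation mice, and its part in the change of Dnajb5 was not tested.

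Of the 7 members higher in repopulation than in control mice, 4 were DNAJC genes. Of the 25 tested DNAJC genes, 16% were higher and 20% (5 genes) lower, beside 13.9% and 15.2% of all genes. Dnajc13, an endosomal J-domain protein that acts in sorting (GRCm38 chr9:104151282-104262930, minus strand), was at 81.8, 84.8, 84.6, 87.8 and 88.3 CPM in control, 91.7, 89.4, 95.6, 88.9 and 108 in depletion and 104, 103, 102, 104 and 103 in repopulation mice. Both treated groups lay above all controls. Dnajc13 was higher by 0.15 (SE 0.04, edgeR adjusted p = 0.0189) in depletion, by 0.13 (adjusted p = 0.0431) from depletion to repopulation and by 0.27 (SE 0.04, adjusted p = 3.4e-05) in repopulation against control. With the length and GC correction the last change was 0.13 (adjusted p = 0.0112) and the first was 0.07 (adjusted p = 0.203). Leaving out any of 13 libraries ended the middle one.

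Dnajc6, the neuronal auxilin, was at 359 to 375 CPM in control, 395 to 425 CPM in depletion and 396 to 409.6 CPM in repopulation mice. It was higher by 0.16 (SE 0.03, edgeR adjusted p = 0.000249) in depletion and by 0.14 (SE 0.03, adjusted p = 0.000829) in repopulation against control. The corrected value in repopulation was 0.06 and did not pass. Dnajb14, an ER-membrane J-domain protein, was higher by 0.16 (adjusted p = 0.00134) and 0.18 (adjusted p = 0.000175), and the corrected values, 0.05 and 0.00, did not pass. Hspa12a, a distant HSP70, rose by 0.11 and 0.12 in the same comparisons, and the second did not pass with the correction (0.05). The first (adjusted p = 0.0191) ended without control mouse 3 or depletion mouse 3, with an adjusted p of up to 0.0669, and without the choroid plexus libraries (0.135). Dnajc16, an ER J-domain protein, rose by 0.10 (adjusted p = 0.03) in repopulation against control and did not pass with the correction (0.05). Dnajc2, a ribosome-associated partner of Hspa14, rose by 0.20 (adjusted p = 0.00178) in repopulation against control and by 0.13 (adjusted p = 0.0389) with the correction.

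The 7 members higher in repopulation than in control mice had a median exon length of 9192 bases (5029 to 15741). The 23 lower members had a median of 3236 bases (1031 to 8765) and those not called 3931. Over all genes the corresponding medians were 7522, 2909 and 3779 bases, so the higher and lower calls of the members split by length as those of all genes did.

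Of the remaining DNAJC genes, Dnajc9, a histone co-chaperone, fell by 0.29 (edgeR adjusted p = 0.000925) from depletion to repopulation and by 0.27 (adjusted p = 0.000693) against control. Dnajc4, Dnajc8, Dnajc12 and Dnajc14 were lower in repopulation than in control, with changes of -0.29 to -0.13. The call of Dnajc12 (adjusted p = 0.0445) ended without any of 7 libraries, with an adjusted p of up to 0.172, and without the choroid plexus libraries (0.11). Dnajc5, the cysteine string protein of synaptic vesicles, was at 426 CPM ± 5.30 in control, 446 CPM ± 16.7 in depletion and 434 CPM ± 8.44 in repopulation (SD, n = 5). It passed in no comparison of the main test. With the length and GC correction, Dnajc5 fell by 0.12 (edgeR adjusted p = 0.00258) from depletion to repopulation. Without depletion mouse 2, it passed as higher in depletion against control (edgeR adjusted p = 0.0292). Dnajc7, which carries clients between HSP70 and HSP90, had log2 changes between -0.00 and 0.01 and passed no test. Hspbp1, an HSP70 exchange factor, fell by 0.21 (adjusted p = 0.00554) from depletion to repopulation and by 0.28 (adjusted p = 0.000243) against control.

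**Figure D4:**
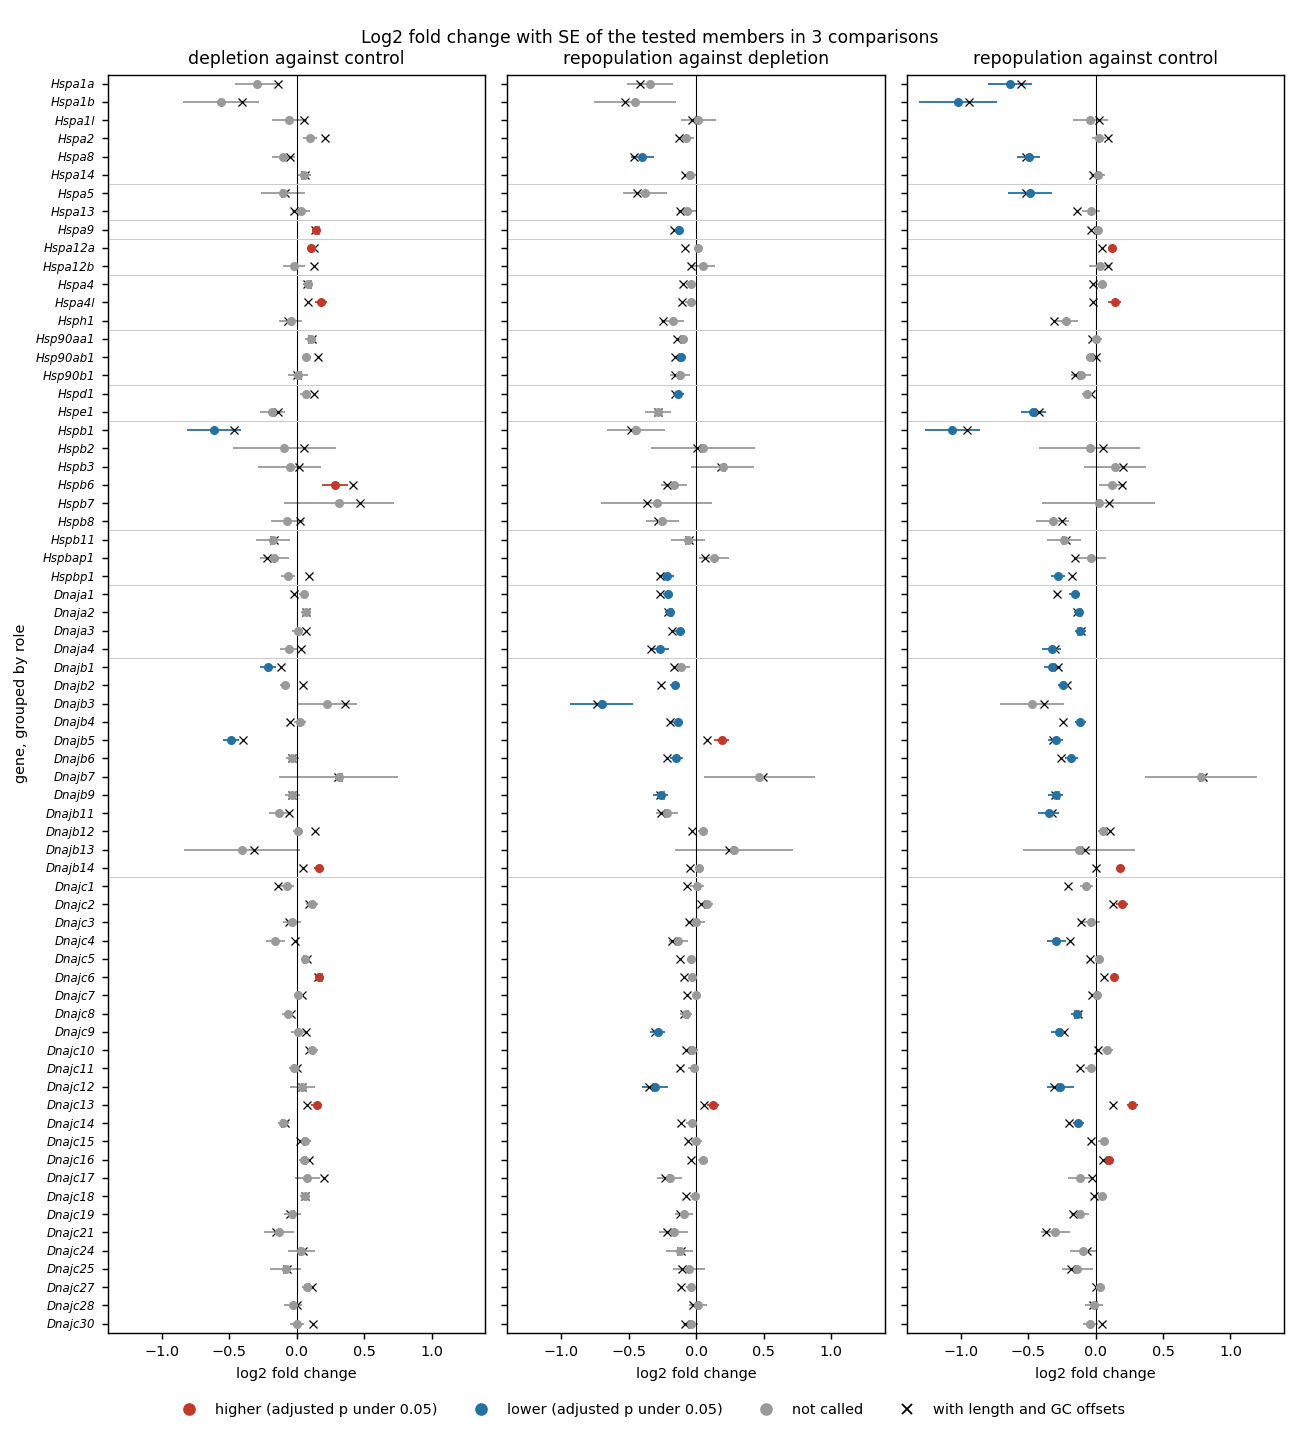
Log2 fold change with SE (points and lines, horizontal axis) of the tested members in 3 comparisons, with crosses for the same value after the length and GC correction. Lower calls (blue) gather in repopulation against control, with Hspb1 (-1.06) and Hspa1b (-1.02) farthest from 0, and higher calls (red) such as Dnajb14 move toward 0 after correction.

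Genes whose promoter held GAANNTTC were set beside those without it. Members without a promoter entry, such as Hspa8, Hsp90aa1 and Hsp90ab1, are in neither group. The genes with the motif are not all separate cases. The Hspa1a and Hspa1b windows are near-identical, and the Hspd1 and Hspe1 windows overlap on opposite strands. In repopulation against control, 7 of 13 tested genes with the motif were lower and 0 higher, namely Dnaja1, Dnaja4, Dnajb6, Hspa1a, Hspa1b, Hspb1 and Hspe1. Without the motif, 14 of 44 were lower and 6 higher. The medians were -0.22 and -0.10 on the log2 scale, and 15.2% of all genes were lower. In repopulation against depletion, 4 of the 13 with the motif were lower and 0 higher, and 8 of the 44 without it were lower and 2 higher, beside 8.98% of all genes lower. In depletion against control, 1 with the motif was higher and 1 lower, and 5 without it were higher and 2 lower. Hspa5 was the member with the ER stress element that was called, Dnajc3 and Hsp90b1 were not, and these groups were not tested against each other.

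Genes outside the symbol pattern that work with these chaperones were taken from a list of 52, of which 51 were tested. In depletion against control, 4 were higher and 3 lower; in repopulation against depletion, 0 were higher and 25 lower; in repopulation against control, 0 were higher and 29 lower. The lower shares were 5.88, 49 and 56.9%, beside 8.35, 8.98 and 15.2% of all genes. Without the choroid plexus libraries, the lower calls of the list numbered 1, 5 and 27 in these comparisons. The length and GC correction gave 1, 32 and 27 lower and 7, 0 and 0 higher calls. With it, 4.49, 19.1 and 15.8% of all genes were lower. All 8 subunits of the TRiC chaperonin, which folds actin and tubulin, fell from depletion to repopulation, by 0.16 to 0.32, and 4 of the 8 were still called without those libraries, while Cct6a, among others, was not (adjusted p = 0.085). Cct7 was at 162, 143, 143, 135 and 147 CPM in control, 146, 152, 134, 153 and 130.1 in depletion and 114, 117, 119, 114 and 109 in repopulation mice. Its repopulation mice were below all others, and the change of Cct7 against control was -0.35 (edgeR adjusted p = 1.08e-05). Of the 12 ER folding and stress genes, 11 were lower in repopulation than in control. The number was 8 with the length and GC correction and 9 without the choroid plexus libraries. The 11 included Calr, an ER lectin chaperone, which fell by 0.58 (edgeR adjusted p = 0.00131), and Herpud1 (-0.34, adjusted p = 2.85e-05). Calr was at 456, 329, 373, 328 and 444 CPM in control mice 1 to 5. Pdia4 was at 54.3, 34.9, 35.1, 34.2 and 50.8 CPM in the same mice. Control mice 1 and 5 were thus the highest controls for both genes, though control mouse 1 was not for Atf4. The ER genes share these mice, so their calls are not independent. Of the 10 HSP90 partners 4 were lower, including Cdc37, which loads kinases on HSP90, at -0.27 (adjusted p = 7.27e-06). Of the 12 HSP70 partners 5 were lower, including Bag1, an exchange factor, at -0.33 (adjusted p = 5.02e-06).

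The heat shock factors Hsf1, Hsf2 and Hsf4 passed no test, with log2 changes against control of -0.12 to 0.04. Their binding partner Hsbp1 fell by 0.25 (edgeR adjusted p = 4.28e-05) in repopulation. Cryab, the small HSP alpha-crystallin B, fell by 0.57 (adjusted p = 0.0083) against control. Markers of oligodendrocytes, which express Cryab, summed to 4619 to 4858 CPM in control, 4834 to 5897 in depletion and 4188 to 4972 in repopulation mice. All 5 of those markers were lower in repopulation than in depletion mice, and astrocyte markers summed to 1385 to 1557, 1509 to 1651 and 1321 to 1389.9 CPM. The part of these cell types in the lower chaperone levels was not tested.

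**Figure D5:**
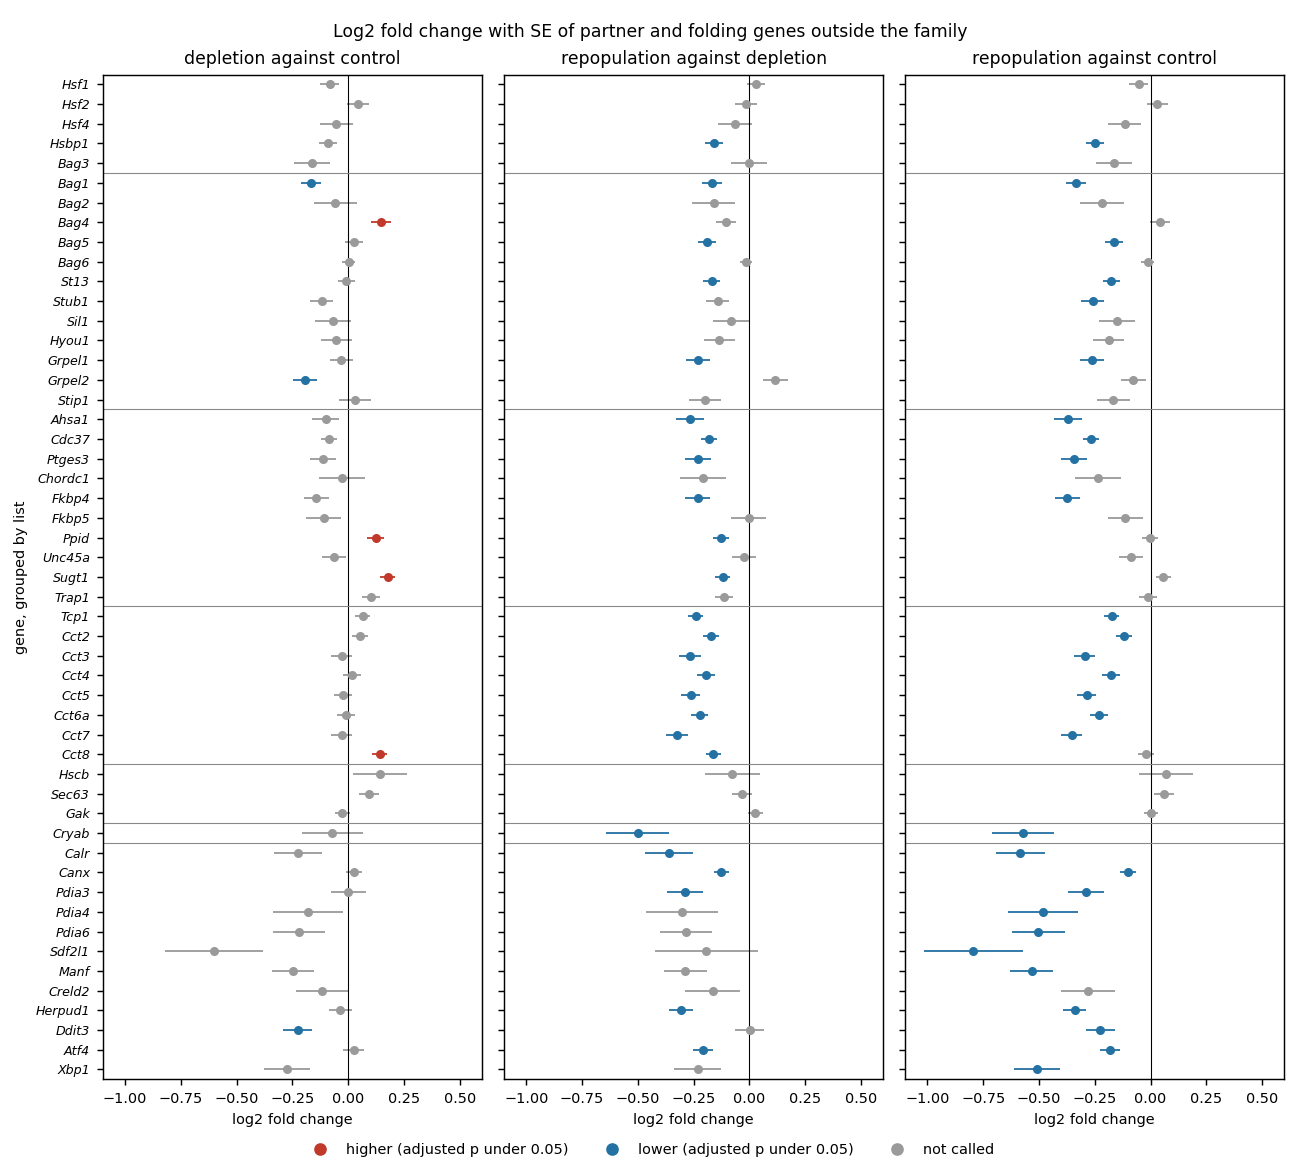
Log2 fold change with SE (horizontal axis) of the 51 tested partner and folding genes outside the symbol pattern in the 3 comparisons, grouped by list. The TRiC subunits Tcp1 to Cct8 are all lower (blue) in repopulation against depletion, and the ER genes lie between -0.79 and -0.10 in repopulation against control.

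The spread between mice was smaller in repopulation than in the other groups. The median coefficient of variation of the members was 6.47% in control, 6.75% in depletion and 4.42% in repopulation mice, against 8.19, 9.12 and 7.28% over all genes. Control mouse 5 held the highest level of 17 of the 69 members and control mouse 1 of 9. Repopulation mouse 5 held the lowest level of 12.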

How the data were processed

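The authors deposited whole-number counts of reads per gene symbol for 15 cortex libraries, and these counts were used as deposited. The submitters' processing notes name the tools DESeq, DESeq2, STAR, MultiQC and FastQC and the genome mm10, with no roles or versions. The counting tool, its annotation and its strand setting were not given in the sources used here. Totals per library ran from 23413551 to 48617851, and this depth limits genes of a few CPM. No 2 libraries held identical values. Libraries of a group differed by more than sampling noise (chi-square over degrees of freedom between 2.53 and 9.95, for genes of 20 or more counts).

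edgeR 4.0.16, under R 4.3.3, gave the tests. The filter was filterByExpr, libraries scaled by TMM, and the robust quasi-likelihood F test run on all 15 libraries with no covariate. The Benjamini-Hochberg adjustment covered 18369 genes, and an adjusted p under 0.05 was a call. Log2 fold changes carry the SE of that fit, and CPM values the SD over 5 mice. Each library came from a separate mouse. Alternatives were DESeq2 1.42.0, RLE factors, no filter, length and GC offsets, the replicate number as a block, 2 groups alone, a fold of at least 1.1, and leaving out each library. Leaving out the 4 choroid plexus libraries was added after the data were seen. The test script was tested on simulated data.

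Exon lengths, coordinates and overlaps come from GENCODE M21 on GRCm38, in which 93.3% of the symbols were found, and all 69 tested members had a length and GC value. Promoters come from RefSeq on GRCm38.p6. Named genes are, in each comparison, the members called with the smallest adjusted p (up to 12 higher and 12 lower), a standing list of 17 well-known members, and up to 5 higher and 5 lower partner genes. Other members and partner genes, such as Calr, Cryab and Hsbp1, were chosen after their values were seen. A gene of the partner list is not reported here and was left out of its counts. The members and lists were chosen with earlier results of these data known. The titles number the mice 1 to 5 in every group. Same-numbered mice of different groups did not deviate together, so the numbers were not used to pair them.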

Additional observations from a re-analysis of the deposited data

Results flagged for a closer look

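A single library stood apart from the other 4 of its group in 5 of 102 groups examined, where chance alone gives about 1 in 20. Dnajb5 was at 185 CPM in repopulation mouse 4, against 143 to 153 CPM in the other repopulation mice, and this mouse also had the highest choroid plexus marker sum (548 CPM). Hspa5 was at 177 CPM in repopulation mouse 5, against 205 to 215 CPM in the others. Dnajb6 was at 48.5 CPM in depletion mouse 5, against 54.4 to 56.8 CPM. Dnajc4 was at 10.3 CPM in depletion mouse 4, against 8.81 to 9.16 CPM. Dnajc5 was at 417 CPM in depletion mouse 2, against 446 to 456 CPM.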

How the results depend on the processing

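RLE factors gave the same 6 counts of called members, and with DESeq2, no filter or the replicate block every count stayed within 1.5 times. The replicate block gave 7 higher and 3 lower in depletion against control, 2 and 14 in repopulation against depletion, and 7 and 21 in repopulation against control. Of 15 same-numbered pairs, 1 correlated above 0.1 (range -0.13 to 0.10) and 1 correlated best with its own number, so the numbers do not pair the mice. The length and GC offsets moved 3 counts: 1 lower in depletion against control, 0 higher in repopulation against depletion and 3 higher in repopulation against control. With the replicate block and these offsets the same counts were 1, 0 and 1. The cause was not tested. A fold of at least 1.1 gave 0 higher and 1 lower, 0 and 2, and 1 and 14, since it asks for a larger change. Using 2 groups alone, or leaving out the choroid plexus libraries, gave 0 higher in repopulation against depletion, and the latter also 0 lower, with 2 depletion mice left. Leaving out each library gave 5 to 8 higher and 1 to 5 lower in depletion against control. It gave 0 to 2 higher and 10 to 19 lower in repopulation against depletion, and 5 to 7 higher and 19 to 25 lower in repopulation against control. The 2 higher calls in repopulation against depletion, Dnajb5 and Dnajc13, gave a lower count in 14 of the 15 cases, all but control mouse 1. The lower count in depletion against control was 1 without control mouse 1 or 5 and 5 without depletion mouse 1.

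Changes that turned sign were near 0, and Hspa4l alone among them was called before. With the length and GC offsets they were Dnaja1 in depletion (-0.019), and in repopulation against control Hspa9 (-0.033), Hsp90aa1 (-0.028), Hsp90ab1 (0.0014), Dnajc5 (-0.041) and Hspa4l (-0.017). With the block added, Dnaja1 was at -0.019, Hspa9 at -0.033, Hsp90aa1 at -0.025, Hsp90ab1 at 0.0026, Dnajc5 at -0.042 and Hspa4l at -0.014. Without the choroid plexus libraries, Hsp90b1 in depletion was at -0.042. Leaving out each library gave ranges across 0 in depletion against control for Hspa5 (-0.23 to 0.0059), Hsp90b1 (-0.041 to 0.068), Hsph1 (-0.10 to 0.024) and Dnajb6 (-0.054 to 0.0013). In repopulation against control they were -0.028 to 0.042 for Hsp90aa1 and -0.00089 to 0.030 for Hspa9.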
